A study of Homo sapiens with 40 samples.

Results

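The genes described here encode the respiratory chain and the machinery that builds and supplies it. They were chosen by symbol alone: every spot of the array whose listed gene symbol begins with NDUF, UQCR, ATP5, MRPL, MRPS, TIMM or TOMM, begins with COX and a digit, or is SDHA, SDHB, SDHC, SDHD, CYCS, CLPP or CLPX. The rule found 41 genes on 67 spots, out of 4604 named genes and 15246 spots. Spots of 1 gene were averaged and unnamed spots kept one by one, which gave 9681 features in all, and 22 of the 41 members rest on 1 spot.

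In the study, caspase-10 (CASP10) was knocked down by an inducible shRNA in multiple myeloma lines, with lymphoma lines beside them, on 40 spotted 2-colour arrays. The human myeloma lines, which are malignant plasma cells, were SKMM1, H929 and KMS12. OCI-Ly7 and OCI-Ly19 are human lines of diffuse large B-cell lymphoma. On 36 arrays, cells carrying a retroviral shRNA and given 20 ng/ml doxycycline for 1 to 5 days were set against uninduced cells of the same line, hairpin and day. With shCasp10-2 there were 12 arrays of SKMM1 (3 repeats), 8 of H929 (2 repeats), 4 of KMS12, 2 of OCI-Ly7 and 2 of OCI-Ly19, and with shCasp10-3 there were 4 of H929 and 4 of KMS12. A further 4 SKMM1 arrays, days 1 to 4, set doxycycline-induced shCasp10-2 cells against doxycycline-induced cells with a control shRNA, shCtrl. In the 36 uninduced comparisons doxycycline was given to the induced cells alone, so its effect and that of the hairpin cannot be told apart there. The days of 1 line, hairpin and repeat are called a course. The labels number the repeats of SKMM1 and H929 on days 2 to 4, name repeats 1 and 2 for the SKMM1 arrays of day 5, and state no repeat for the day 1 arrays of these lines with shCasp10-2 or for H929 on day 5 with that hairpin. Their values are therefore given apart from the numbered courses, and no myeloma fit reported as a main result uses days 1 or 5. RNA was taken from whole cultures, in which fewer cells of a kind and less RNA per cell cannot be told apart, and ratios give no levels from which the lines could be checked against marker genes.

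The respiratory chain passes electrons from NADH and succinate through complexes I to IV to oxygen, with cytochrome c as the carrier between complexes III and IV, and ATP synthase uses the proton gradient they build. Most of the subunits are encoded in the nucleus, made in the cytosol, and drawn into the organelle by the TOM and TIM translocases. The remaining subunits are made inside by the mitochondrial ribosome, whose own proteins (MRPL for the large subunit, MRPS for the small) also come from the nucleus. Plasma cells secrete protein at high rates and draw on mitochondrial ATP to do so.

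Values are the log ratios the authors deposited, read as log2 since the base is not stated, so 0 is no difference, and above 0 means higher in induced cells. That direction follows the dyes in the labels and is likely rather than stated. On 12 arrays, called wide here, over 10% of all spots had a ratio beyond 3 in either direction. Of 780 array pairs, 87 had a Pearson's r below -0.3 over all spots, with a lowest value of -0.52 between the SKMM1 day 5 arrays labelled repeats 1 and 2, so the direction of these ratios is not settled, and values with the sign of a set turned are given where they change a result. CASP10 itself, on 6 spots, was below 0 on 34 of 40 arrays, with a lowest value of -5.60, a median of -0.36 and a highest value of 2.04. The myeloma response is therefore given with all arrays and without the wide ones, on days 2 to 4. The other main fits leave the wide arrays out, and the lymphoma response and myeloma minus lymphoma use days 3 and 4. SKMM1 repeat 2 was wide on all of days 2 to 4, so it has no part in the main fits without the wide arrays. The dyes were never swapped, and a response against 0 therefore includes any dye effect.

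Regulatory sequence was available for 36 of the 41 members in RefSeq's promoter table of GRCh38.p14, whose windows are 300 bases long and take in each start site. Nuclear genes of mitochondrial proteins are known targets of ETS-family factors, NRF1 and YY1, so short forms of their motifs were searched on both strands by exact letters. The ETS form CCGGAAG was present in 16 of the 36 member promoters (44.4%) and in 2913 of all 27305 promoters (10.7%). The YY1 form AAGATGG was present in 9 of the 36 (25%) and in 6.06% of all, the NRF1 form GCGCATG in 4 of the 36 (11.1%) and in 4.67% of all, and the GC box GGGCGG of SP1 in 22 of the 36 (61.1%) and in 44.6% of all. The full table also holds genes that encode no protein, and the shares were not tested. The promoters of 4 members whose ratios are described at length are shown 5′ to 3′ on the strand of the gene, with the motif letters in capitals. COX15 and MRPL3 carry an ETS form, TOMM40 carries 3 GC boxes, and UQCRC2 carries the YY1 form on the opposite strand just past its start site, printed as CCATCTT. Their positions are chr10:99732078-99732377 (minus strand) for COX15, chr3:131502922-131503221 (minus strand) for MRPL3, chr19:44891004-44891303 (plus strand) for TOMM40 and chr16:21953111-21953410 (plus strand) for UQCRC2.
COX15: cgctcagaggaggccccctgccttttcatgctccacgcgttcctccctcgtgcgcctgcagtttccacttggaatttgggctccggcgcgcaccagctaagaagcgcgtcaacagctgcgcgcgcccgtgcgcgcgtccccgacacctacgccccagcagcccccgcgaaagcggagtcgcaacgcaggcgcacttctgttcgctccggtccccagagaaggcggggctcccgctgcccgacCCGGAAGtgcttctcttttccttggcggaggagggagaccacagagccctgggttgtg
MRPL3: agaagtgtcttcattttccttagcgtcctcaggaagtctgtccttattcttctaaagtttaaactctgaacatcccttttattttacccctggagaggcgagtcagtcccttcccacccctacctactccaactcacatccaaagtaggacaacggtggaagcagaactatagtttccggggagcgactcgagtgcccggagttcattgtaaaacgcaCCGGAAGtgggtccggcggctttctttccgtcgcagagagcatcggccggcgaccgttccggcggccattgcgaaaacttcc
TOMM40: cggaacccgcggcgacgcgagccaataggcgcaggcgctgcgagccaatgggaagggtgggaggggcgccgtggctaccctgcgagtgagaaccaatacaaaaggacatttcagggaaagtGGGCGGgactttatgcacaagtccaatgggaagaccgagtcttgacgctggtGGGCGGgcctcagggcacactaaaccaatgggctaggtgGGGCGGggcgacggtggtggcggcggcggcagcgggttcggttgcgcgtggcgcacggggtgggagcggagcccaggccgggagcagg
UQCRC2: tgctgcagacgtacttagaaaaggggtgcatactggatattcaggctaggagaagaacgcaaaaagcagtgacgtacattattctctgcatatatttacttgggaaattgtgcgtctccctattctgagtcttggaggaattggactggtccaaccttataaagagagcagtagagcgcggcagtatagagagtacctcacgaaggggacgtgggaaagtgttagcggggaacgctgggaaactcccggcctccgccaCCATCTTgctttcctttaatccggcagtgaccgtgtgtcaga

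The first comparison asks how the members moved in the 3 myeloma lines. Without the wide arrays, 3 of the 41 members fell and none rose: CLPP, the proteolytic subunit of the matrix protease ClpXP, NDUFC2, an accessory subunit of complex I, and COX15, which makes the haem a of complex IV. The 3 responses lay between -0.55 and -0.44. With all arrays, none of the 41 passed the test. Over the 41 members the median response was -0.045 without the wide arrays, where the median of all features was 0.019, and 25 members (61.0%) were below 0 against 46.3% of all features. With all arrays the members' median was 0.013, where that of all features was -0.29, and 19 members (46.3%) were below 0 against 81.4% of all features.

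COX15 was below 0 on 27 of the 32 myeloma arrays, with a lowest value of -1.88, a median of -0.36 and a highest value of 0.71. On days 2 to 4 its values in SKMM1 were -0.49, -0.84 and -0.92 in repeat 1, -0.22, -0.66 and -0.61 in repeat 2, and -0.17, -0.43 and -1.88 in repeat 3, and the other SKMM1 arrays read -0.25 on day 1, and -0.21 and -0.79 on day 5 (labelled repeats 1 and 2). In H929 they were -0.65, -0.95 and -1.06 in repeat 1 and -0.23, -0.61 and -1.07 in repeat 2 (days 2 to 4), -0.16 on day 1 and -1.02 on day 5, and 0.71, 0.04, -0.41 and -0.18 with shCasp10-3 (days 2 to 5). In KMS12 they were 0.15, -0.05, -0.13 and -0.55 with shCasp10-2 (days 1 to 4) and 0.13, 0.04, -0.32 and -0.29 with shCasp10-3 (days 2 to 5). All arrays of SKMM1 and all shCasp10-2 arrays of H929 were below 0, and the 5 values above 0 came from days 1 to 3 of the other 3 courses. With wide arrays left out, COX15 responded by -0.45 ± 0.11 (SE of the fit, 16 myeloma arrays), with an adjusted p of 0.028 (limma), and its mean was below 0 in all 7 courses, as was that of 4.19% of all features. TOMM34 was the other member with this sign in all 7. Turning the sign of SKMM1 repeat 3 ends this for both by itself, so it does not test the count. With all arrays COX15 responded by -0.39 ± 0.13, with an adjusted p of 0.83. The call was lost when either KMS12 course was left out, with values of -0.40 and -0.50 and adjusted p of 0.084 and 0.098, and after turning the sign of SKMM1 repeat 3 (-0.36, adjusted p = 0.54).

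CLPP was read by 2 spots, which correlated at 0.65 over the 28 arrays that were not wide. In SKMM1 it was -0.54, -0.50 and -0.59 in repeat 1, -2.95, 0.16 and 0.67 in repeat 2, and -0.34, -0.10 and -1.26 in repeat 3 (days 2 to 4), with -0.16 on day 1, and 0.65 and -0.38 on day 5 (labelled repeats 1 and 2). In KMS12 it was -0.44, -1.10, -0.52 and -0.46 with shCasp10-2 (days 1 to 4) and -0.57, -0.75, -1.40 and -0.59 with shCasp10-3 (days 2 to 5). All 8 KMS12 arrays were below 0, while 2 of the 3 arrays of SKMM1 repeat 2 were above 0, and on its day 2 the spots disagreed, at -6.56 and 0.65. In H929 CLPP was -0.05, -0.31 and 0.03 in repeat 1 (days 2 to 4), -1.33 on day 1 and 0.03 on day 5, and -0.25, -0.66, -1.08 and -0.31 with shCasp10-3 (days 2 to 5). On days 2 to 4 of H929 repeat 2 it was 0.09, -0.01 and 0.12, so this repeat lay close to 0. Without the wide arrays CLPP responded by -0.55 ± 0.085 (SE, 16 myeloma arrays), with an adjusted p of 0.0061 (limma), the smallest among the members. The hairpins of H929 have equal weight in this response, and shCasp10-3 has 1 array there that was not wide. Without that course CLPP responded by -0.37 (adjusted p = 0.029). Each spot fitted on its own was also past the threshold, at -0.68 and -0.42. With all arrays the response was -0.58 ± 0.12, with an adjusted p of 0.83, and with the sign of SKMM1 repeat 3 turned it was -0.48, with an adjusted p of 0.39.

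NDUFC2, on 1 spot, was -0.65, -0.57 and -1.11 in SKMM1 repeat 1, 0.16, -0.03 and 0.04 in repeat 2, and 0.04, -0.72 and 0.48 in repeat 3 (days 2 to 4), with -0.44 on day 1, and -0.77 and -0.32 on day 5 (labelled repeats 1 and 2). In KMS12 it was -0.26, -0.17, -0.25 and -0.33 with shCasp10-2 (days 1 to 4) and -0.35, -0.68, -0.93 and -0.59 with shCasp10-3 (days 2 to 5), so all 8 arrays were below 0. H929 was mixed, with 0.29, 0.20 and -0.50 in repeat 1 and -0.05, 0.06 and 0.36 in repeat 2 (days 2 to 4), 0.04 on day 1 and 0.28 on day 5, and -0.13, -0.10, -0.51 and -0.49 with shCasp10-3 (days 2 to 5). With wide arrays left out, NDUFC2 responded by -0.44 ± 0.10 (SE, 16 myeloma arrays), with an adjusted p of 0.022 (limma). With all arrays it responded by -0.27 ± 0.17, with an adjusted p of 0.83. The adjusted p was 0.066 without the H929 shCasp10-3 course (-0.35), 0.14 without the KMS12 shCasp10-3 course (-0.38), and 0.54 with the sign of SKMM1 repeat 3 turned (-0.33).

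These 3 calls are 7.32% of the 41 members, beside 5.89% of all features in the same fit (570 of 9681, of which 178 were higher and 392 lower). With all arrays the share called was 0% of the features and of the members, while 575 features and 3 members (CLPP, COX15 and TOMM40) had an unadjusted p under 0.05. Without the wide arrays but with each course reduced to its mean, 0 of the 41 passed in every comparison of this report where that fit was made. The calls therefore rest on counting the days of a course as separate arrays with a shared random block, whose estimated correlation was 0.18. The share of all features that passed with course means is not given here, so that 0 does not set the members apart.

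**Figure D1:**
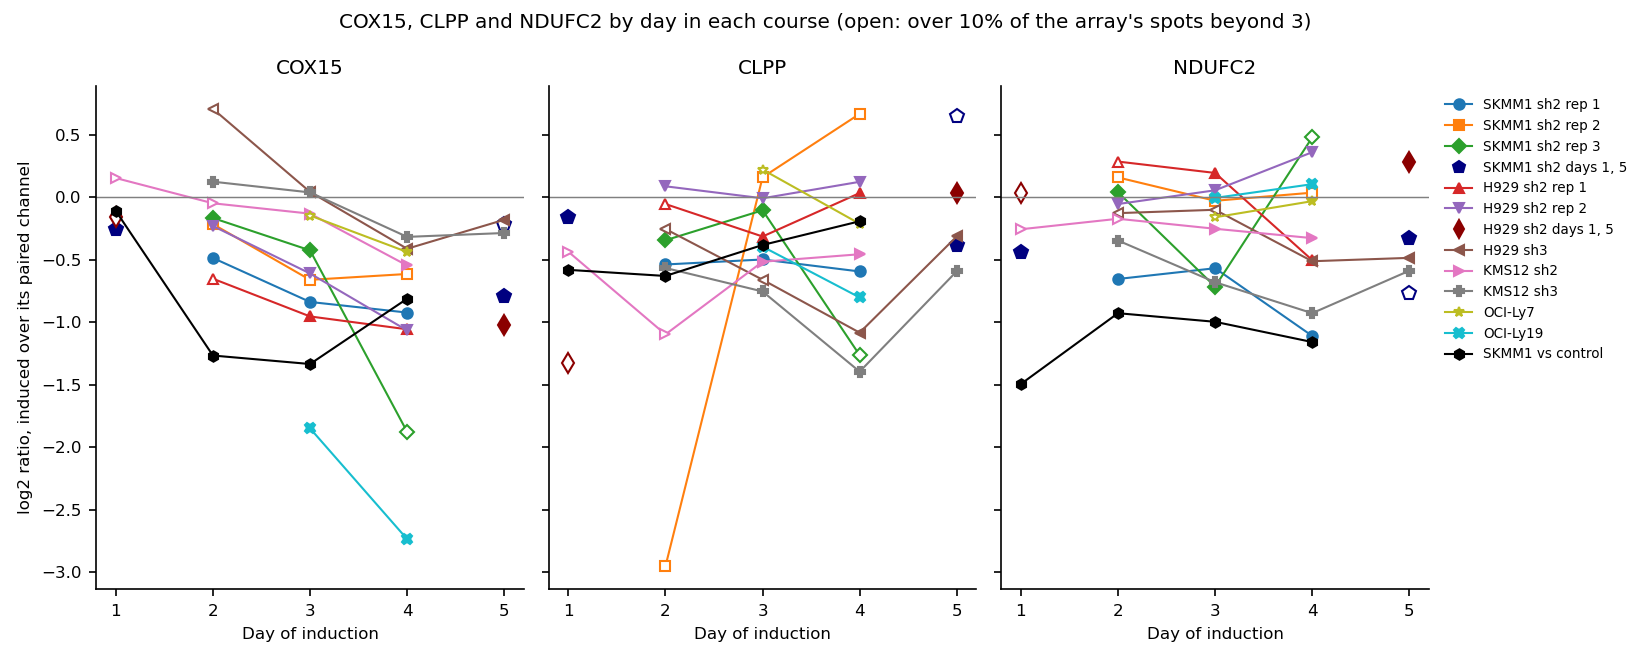
Log2 ratio (vertical axis) of COX15, CLPP and NDUFC2 by day of induction (horizontal axis), 1 line per course, where sh2 and sh3 stand for shCasp10-2 and shCasp10-3 and open symbols mark the 12 wide arrays. The shCasp10-2 arrays of SKMM1 and H929 on days 1 and 5 are drawn as points joined to no course. COX15 lies below 0 on 27 of the 32 myeloma arrays and reads -2.74 on day 4 of OCI-Ly19, CLPP lies near 0 in H929 repeat 2, and NDUFC2 is lowest in SKMM1 against the control shRNA.

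Among the other subunits of complex I, none passed the test in the myeloma response. NDUFB7 responded by -0.21 ± 0.085 and NDUFAB1, which is also the mitochondrial acyl carrier protein, by -0.14 ± 0.12. NDUFA8 (-0.045 ± 0.063) and the core subunit NDUFV2 (0.020 ± 0.083) lay close to 0. TIMMDC1, a complex I assembly factor, was the highest member at 0.66 ± 0.49 (adjusted p = 0.46), with the largest error of all 41. SDHA, the flavoprotein of complex II, responded by -0.23 ± 0.11 as the mean of 2 spots that correlated at only 0.14, and by itself 1 of these spots passed the test at -0.50 (adjusted p = 0.012) while the other was at 0.040.

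In complex III, UQCRB, a small subunit that helps form the quinone-binding site, was above 0 in all 8 courses with all arrays, as were 0.496% of the features, and in all 7 courses without the wide arrays, as were 2.53%. On the 32 myeloma arrays its lowest value was -0.18, its median 0.26 and its highest value 1.41, and it was below 0 on 6. Its response was 0.19 ± 0.075 with wide arrays left out and 0.32 ± 0.14 with all arrays, and neither passed the test (adjusted p = 0.15 and 0.83). The core subunits UQCRC1 and UQCRC2 responded by -0.29 ± 0.12 and 0.073 ± 0.13. In 1 direction across all 8 courses with all arrays there were 2 further members, COX7A2L, which helps join complexes III and IV into supercomplexes (above 0), and TOMM34 (below 0, as were 3.01% of the features). With wide arrays left out, MRPS31 was the second member above 0 in all 7 courses. Turning the sign of SKMM1 repeat 3 by itself ends 1 sign in all courses for any member that had it. No other member had 1 sign in all courses after the turn, in either array set.

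Of the complex IV subunits, COX7A2L, COX7C and COX8A responded by 0.041 ± 0.075, -0.050 ± 0.089 and 0.067 ± 0.40. COX8A had 1 value of 4.76, on day 2 of SKMM1 repeat 1, and its other myeloma values lay between -1.16 and 0.54. Among the assembly factors other than COX15, COX14 responded by -0.13 ± 0.12, the copper chaperone COX17 by 0.0014 ± 0.069 and COX20, a chaperone of subunit COX2, by 0.20 ± 0.18. Cytochrome c (CYCS) responded by -0.10 ± 0.097. The 6 members of ATP synthase lay between -0.19 (ATP5IF1, the inhibitory factor of the enzyme) and 0.057 (ATP5F1D, the delta subunit), and none passed the test.

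The mitochondrial ribosome had no member past the threshold. Its 7 large-subunit members lay between -0.27 (MRPL28) and 0.24 (MRPL3), with 5 below 0, and its 5 small-subunit members lay between -0.048 (MRPS27) and 0.14 (MRPS31), with 2 below 0. None of the 12 passed the test in either array set. In the import machinery, TOMM20, a receptor of the outer membrane, responded by 0.11 ± 0.076, TOMM34, a cytosolic co-chaperone of import, by -0.25 ± 0.13, TOMM40, the pore of the outer membrane, by -0.16 ± 0.15, and TIMM44, which anchors the import motor at the inner membrane, by -0.10 ± 0.13. TOMM34 was below 0 on 27 of the 32 myeloma arrays, as many as COX15, and at least 27 were below 0 for 3.61% of all features.

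**Figure D2:**
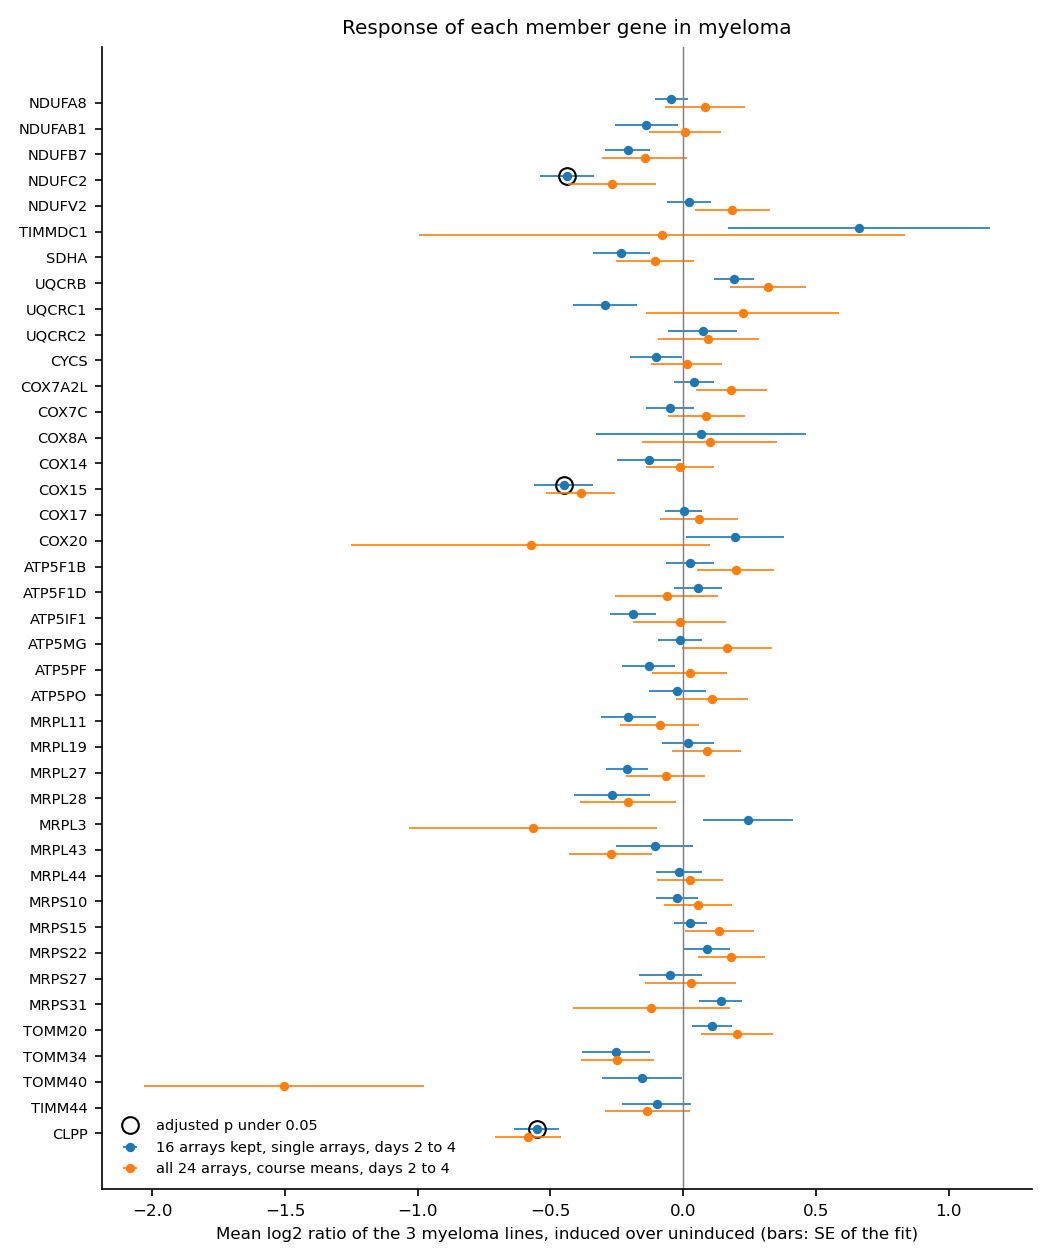
Response of each of the 41 members in the myeloma lines (horizontal axis, mean log2 ratio of induced over uninduced cells; bars are the SE of the fit), with wide arrays left out (blue) and with every array, as course means (orange). Circles mark CLPP, NDUFC2 and COX15, the members past the threshold, and TOMM40 has the largest gap between the fits, at -0.16 without the wide arrays and -1.50 with all.

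The spread was narrower over the members than over all features on 38 of the 40 arrays. The backgrounds are unlike: all features include the unnamed spots, each kept alone. The members are all named, and 19 of them average several spots, which by itself narrows a spread. On the 12 wide arrays the interquartile range ran from 0.39 to 1.17 over the members and from 1.16 to 5.08 over all features, and it was smaller over the members on all 12. On the other 28 arrays it ran from 0.18 to 1.18 over the members and from 0.37 to 1.18 over all features. On day 1 of H929 with shCasp10-2, the array with the widest spread, 16.4% of member spots lay beyond 3, against 46.4% of all spots, and the median was -0.041 over the members and -2.68 over all features. On wide arrays together 5.47% of member spot values lay beyond 3, against 20.0% of all spot values, and on the other arrays 0.64% against 1.88%. The median of all features was below 0 on 10 of the 12 wide arrays, and the members' median was above it on all 10. On both of the other wide arrays the median of all features was above 0 and the members' median was below it, as it was on 21 of the 28 arrays that were not wide. These shares describe the arrays and were not tested, and the members' spread was not compared with that of other named genes.

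**Figure D3:**
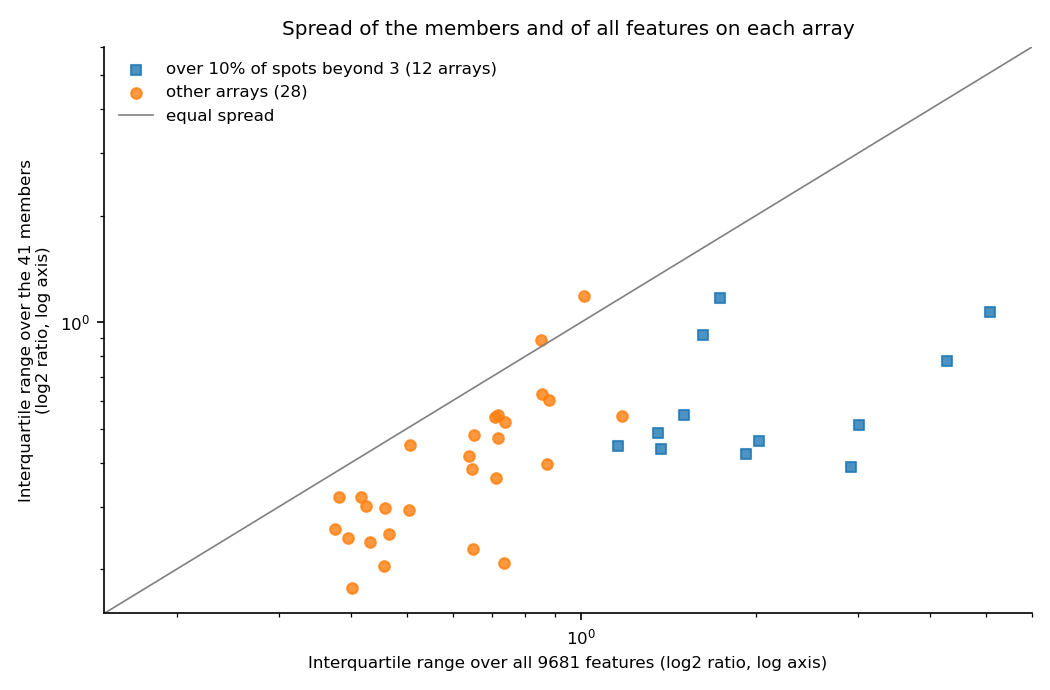
Interquartile range of log2 ratios over the 41 members (vertical log axis) and over all 9681 features (horizontal log axis), 1 point per array, with a line of equal spread. All 12 wide arrays (squares) lie below the line, and 38 of the 40 arrays do.

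Of the 56 member spot values beyond 3 on any array, 46 came from 4 genes: COX20 with 14, TOMM40 with 14, MRPL3 with 11 and TIMMDC1 with 7. These 4 hold 8 of the 67 spots. A further 8 genes had 1 or 2 such values, and 29 genes had none. All 14 values of TOMM40 were negative and on wide arrays. Over all spots, the 10 wide arrays with a median below 0 also had mostly negative values beyond 3. On day 1 of H929 with shCasp10-2, 46.3% of all spots lay below -3 and 0.066% above 3. Day 4 of SKMM1 repeat 3 had the reverse, with 14.3% above 3 and 0.43% below -3. The 2 spots of TOMM40 correlated at 0.84, against 0.22 for the 2 of MRPL3 and 0.12 to 0.36 for the 3 of COX20, over the 28 other arrays.

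TOMM40 read 0.95, 0.27 and 0.05 in SKMM1 repeat 1, 0.07, -6.50 and -2.46 in repeat 2, and 0.40, 0.96 and -0.14 in repeat 3 (days 2 to 4), with -0.34 on day 1, and -4.65 and 0.44 on day 5 (labelled repeats 1 and 2). In H929 it read -2.92, -0.83 and -0.18 in repeat 1 and 0.07, -0.01 and -0.06 in repeat 2 (days 2 to 4), -4.85 on day 1 and -0.39 on day 5, and -5.57, -5.56, 0.32 and 0.09 with shCasp10-3 (days 2 to 5). In KMS12 it read -1.02, -5.44, -1.34 and -2.13 with shCasp10-2 (days 1 to 4) and -0.47, -0.37, -0.27 and -0.27 with shCasp10-3 (days 2 to 5). Every value of TOMM40 below the -2.13 of KMS12 on day 4 was on a wide array, and all 8 KMS12 values were below 0.

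MRPL3, a large-subunit protein, was as low as -6.12 in H929 (day 1, shCasp10-2) and as high as 3.07 in SKMM1 (day 5, labelled repeat 2) and 3.10 in OCI-Ly7 (day 4). The 2 high values each came from 1 of its 2 spots, which read 0.013 and 6.13 in SKMM1, and 0.18 and 6.02 in OCI-Ly7. COX20 reached -5.64 in SKMM1 on day 3 of repeat 2 and 2.25 on day 3 of repeat 3. TIMMDC1 read -7.48, -1.20 and -2.90 in SKMM1 repeat 2 and 5.38, 0.17 and 4.37 in repeat 3 (days 2 to 4), and -1.33 and 3.99 on day 5 (labelled repeats 1 and 2). On days 2 to 4 these 3 genes were negative throughout SKMM1 repeat 2, while MRPL3 and TIMMDC1 were positive throughout repeat 3, so repeats of 1 line and hairpin stood on opposite sides of 0.

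**Figure D4:**
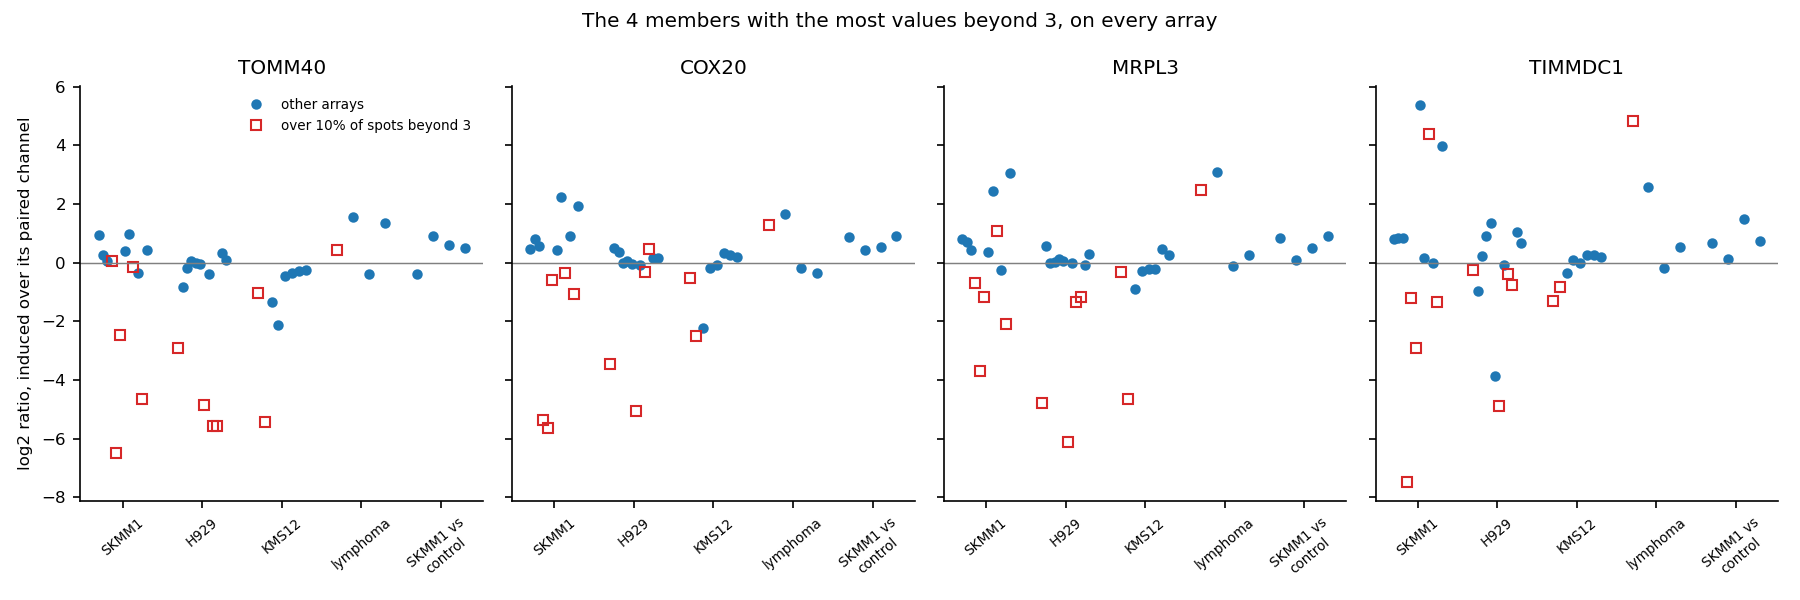
Log2 ratio (vertical axis) of TOMM40, COX20, MRPL3 and TIMMDC1 on each of the 40 arrays, by line or comparison (horizontal axis), with wide arrays as open squares. The values below -4 are all on wide arrays, with TIMMDC1 down to -7.48 in SKMM1, and the SKMM1, H929 and KMS12 values overlap.

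The lines were then fitted one by one, without the wide arrays. For SKMM1 this leaves repeats 1 and 3, since repeat 2 was wide on days 2 to 4. In SKMM1, NDUFC2 (-0.59 ± 0.17, adjusted p = 0.030) and COX15 (-0.55 ± 0.18, adjusted p = 0.049) fell, and MRPL3 (0.97 ± 0.28, adjusted p = 0.030) and COX20 (0.93 ± 0.31, adjusted p = 0.048) rose. These 4 are 9.76% of the members, beside 17.5% of all features called in SKMM1 by limma. Of those 1690 features, 1293 were higher and 397 lower. In repeat 2, which the fit leaves out, the means over days 2 to 4 were -1.85 for MRPL3 and -3.87 for COX20. With the sign of SKMM1 repeat 3 turned, COX20 was at -0.29 and MRPL3 at -0.31, and none of the 4 passed. With all arrays kept, COX20 was at -0.83 and MRPL3 at 0.028, and none of the 4 passed. Without SKMM1 repeat 1, COX15 was at -0.30 and NDUFC2 at -0.34, and neither passed. COX15 also lost the call without the shCasp10-2 course of KMS12 (adjusted p = 0.054) or its shCasp10-3 course (0.062), and COX20 without that shCasp10-3 course (0.064) or without SKMM1 repeat 3 (0.61, adjusted p = 0.099).

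In KMS12, CLPP was the single member called, at -0.70 ± 0.14 (adjusted p = 0.040, limma), where 0.496% of all features were called. TOMM40 was next at -1.05 ± 0.25 (adjusted p = 0.089). CLPP lost the call without either course, at -0.91 (adjusted p = 0.28) without the shCasp10-2 course and -0.49 (adjusted p = 0.32) without the shCasp10-3 course. In H929 none of the 41 passed and 0.0826% of the features did. The smallest p-values belonged to CLPP (-0.55 ± 0.16, adjusted p = 0.29), COX15 (-0.60 ± 0.20, adjusted p = 0.37) and NDUFB7 (-0.23 ± 0.16, adjusted p = 0.78). Without the shCasp10-3 course, which is 1 array in this fit, CLPP was at -0.022 and NDUFB7 at 0.038.

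The differences between lines were tested in the same fit. For SKMM1 minus KMS12, 2 members were called, TOMM40 at 1.59 ± 0.35 (adjusted p = 0.020) and COX20 at 1.44 ± 0.44 (adjusted p = 0.049), beside 9.23% of all features. TOMM40 responded by 0.53 in SKMM1 and -1.05 in KMS12, and COX20 by 0.93 in SKMM1 and -0.51 in KMS12. Both calls were lost without the shCasp10-2 course of KMS12, where TOMM40 was at 0.91 (adjusted p = 0.34) and COX20 at 0.76 (adjusted p = 0.39). Without the shCasp10-3 course COX20 was at 2.12, with an adjusted p of 0.050 that just missed the threshold. With all arrays kept, TOMM40 was at 0.96 and COX20 at -0.099, and neither passed. With the sign of SKMM1 repeat 3 turned, they were at 0.96 and 0.22, and neither passed.

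For SKMM1 minus H929 no member was called and 0.031% of the features were, and the same holds for H929 minus KMS12, also with 0.031%. The smallest p-values were those of MRPL3 (0.92 ± 0.42, adjusted p = 0.30), COX17 (-0.35 ± 0.17, adjusted p = 0.33) and ATP5MG (-0.37 ± 0.21, adjusted p = 0.40) in SKMM1 minus H929. Without SKMM1 repeat 1, MRPL3 passed at 1.36 (adjusted p = 0.046). In H929 minus KMS12 they were those of TOMM40 (1.10 ± 0.37, adjusted p = 0.92), MRPL43 (-0.69 ± 0.36) and COX20 (0.69 ± 0.46). CLPP differed by 0.15 ± 0.21, 0.29 ± 0.20 and 0.14 ± 0.21 in SKMM1 minus H929, SKMM1 minus KMS12 and H929 minus KMS12. Each of these 3 differences was under 2 times its SE.

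The hairpins were compared within H929 and within KMS12. None of the 41 passed for shCasp10-3 minus shCasp10-2 in either line, where 0.031% of the features were called in H929 and 0.0723% in KMS12. In H929 the smallest p belonged to CLPP (-1.06 ± 0.31, adjusted p = 0.64), at -1.08 on the 1 shCasp10-3 array that was not wide, against -0.31, 0.03, 0.09, -0.01 and 0.12 on the 5 shCasp10-2 arrays of days 2 to 4. MRPL27 (-0.58 ± 0.29) and MRPL28 (-0.95 ± 0.53) were next. In H929, 34 of the 41 members were lower with shCasp10-3 than with shCasp10-2, beside 47.6% of all features, and the shCasp10-3 side is that 1 array. With all arrays, as course means, this difference ran from -2.95 for TOMM40 to 0.87 for COX15, and the count of 34 does not describe that fit. In KMS12 the smallest p-values belonged to TOMM40 (1.36 ± 0.50), UQCRC1 (-0.96 ± 0.41) and COX20 (1.37 ± 0.62), with adjusted p-values of 0.73, 0.91 and 0.98.

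Against the control shRNA, in SKMM1, 3 members fell: COX15 by 1.14 ± 0.25, NDUFC2 by 1.03 ± 0.22 and ATP5IF1 by 0.87 ± 0.19 on the log2 scale, each with an adjusted p of 0.012 (limma). The share of all features called was 8.16%. On days 1 to 4, COX15 read -0.11, -1.27, -1.34 and -0.81, NDUFC2 read -1.50, -0.93, -0.997 and -1.16, and ATP5IF1 read -0.56, -0.79, -1.03 and -0.79. All 12 values were below 0. ATP5IF1 was unevenly measured: against uninduced cells 1 of its spots responded by -0.41 (past the threshold) and the other by 0.027. Against the control shRNA these spots read -1.39, -1.10, -1.62 and -1.39 for the first and 0.28, -0.48, -0.45 and -0.19 for the other, so the low mean was mainly that of 1 spot. CLPP was at -0.40 ± 0.19 (adjusted p = 0.21). There was 1 course against the control shRNA, the error was borrowed from the other courses, and with course means none of the 3 passed (adjusted p = 0.45 each). With all arrays kept none of the 3 passed either. The labels do not say whether the induced RNA on these arrays is that of SKMM1 repeat 1, so the sets are given side by side and not as separate evidence.

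In the lymphoma lines, on days 3 and 4, COX15 fell by 1.37 ± 0.23 (adjusted p = 0.0028), UQCRC2 by 1.51 ± 0.32 (adjusted p = 0.011) and CYCS by 0.73 ± 0.21 (adjusted p = 0.043) on the log2 scale, and MRPL3 rose by 1.58 ± 0.35 (adjusted p = 0.014). These 4 are 9.76% of the members, beside 13.9% of all features called by limma. COX15 read -1.85 and -2.74 on days 3 and 4 of OCI-Ly19, and -0.15 and -0.44 on days 3 and 4 of OCI-Ly7, the first of which is a wide array left out of the fit. UQCRC2 read -1.43 and -3.28 in OCI-Ly19 and 2.49 and -0.67 in OCI-Ly7. CYCS read -0.50 and -1.30 in OCI-Ly19 and -0.53 and -0.56 in OCI-Ly7, so it was below 0 on all 4 arrays. MRPL3 read -0.13 and 0.25 in OCI-Ly19 and 2.47 and 3.10 in OCI-Ly7. Its 2 spots read 0.18 and 6.02 on day 4 of OCI-Ly7, the array of that line in the fit. Each lymphoma line had a mean of its own in the fit, so the gap between these lines does not enter the SE or p. The errors were borrowed mainly from the myeloma and control-shRNA arrays. The same gap is left out of the errors of myeloma minus lymphoma.

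The low values of COX15 and UQCRC2 were those of OCI-Ly19, and the high values of MRPL3 were those of OCI-Ly7. Without OCI-Ly19, COX15 was at -0.44 (adjusted p = 0.77), UQCRC2 at -0.67 (adjusted p = 0.25) and CYCS at -0.56 (adjusted p = 0.50). Without OCI-Ly7, MRPL3 was at 0.062 (adjusted p = 0.97), and with the sign of OCI-Ly7 turned it was at -1.52 (adjusted p = 0.025). CYCS also lost the call without either KMS12 course, with adjusted p of 0.063 and 0.057. With all arrays kept, or with the sign of SKMM1 repeat 3 turned, none of the 4 passed. Other members were low on day 4 of OCI-Ly19 as well, where the members' median was -0.50 and that of all features 0.023, the lowest members' median of any array. On days 3 and 4, 1 member was called for myeloma minus lymphoma, UQCRC2 at 1.58 ± 0.36 (adjusted p = 0.024), beside 7.04% of all features. It lost the call without OCI-Ly19 (0.74, adjusted p = 0.24), without KMS12 with shCasp10-2 (1.55, adjusted p = 0.052) and with the sign of OCI-Ly7 (0.91, adjusted p = 0.19) or SKMM1 repeat 3 (1.69, adjusted p = 0.087) turned. For COX15 myeloma minus lymphoma was 0.83 ± 0.26 (adjusted p = 0.075).

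The change with day was fitted over the single myeloma arrays of days 2 to 4 that were not wide. No member and 0% of the features were called by limma, although 533 features and 4 members had an unadjusted p under 0.05. The smallest p-values belonged to COX15 (-0.32 ± 0.070 per day, adjusted p = 0.61), ATP5F1B, the catalytic beta subunit of ATP synthase (-0.17 ± 0.054 per day, adjusted p = 0.87), and ATP5IF1 (-0.22 ± 0.082 per day, adjusted p = 0.87). With all arrays, COX15, ATP5F1B and COX7A2L were lower on day 4 than on day 2 in all 8 courses, as were 0.816% of all features, and no member was higher on day 4 in all 8, as were 1.75%. With the sign of SKMM1 repeat 3 turned, which by itself ends the count for these 3, ATP5IF1 and COX8A were lower on day 4 in all 8. This count was added after the values by day had been seen. For COX15 day 4 minus day 2 ran from -1.71 in SKMM1 repeat 3 to -0.40 in SKMM1 repeat 2, for COX7A2L from -0.93 in H929 with shCasp10-3 to -0.015 in H929 repeat 2, and for ATP5F1B from -0.79 in H929 with shCasp10-3 to -0.0017 in SKMM1 repeat 3.

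**Figure D5:**
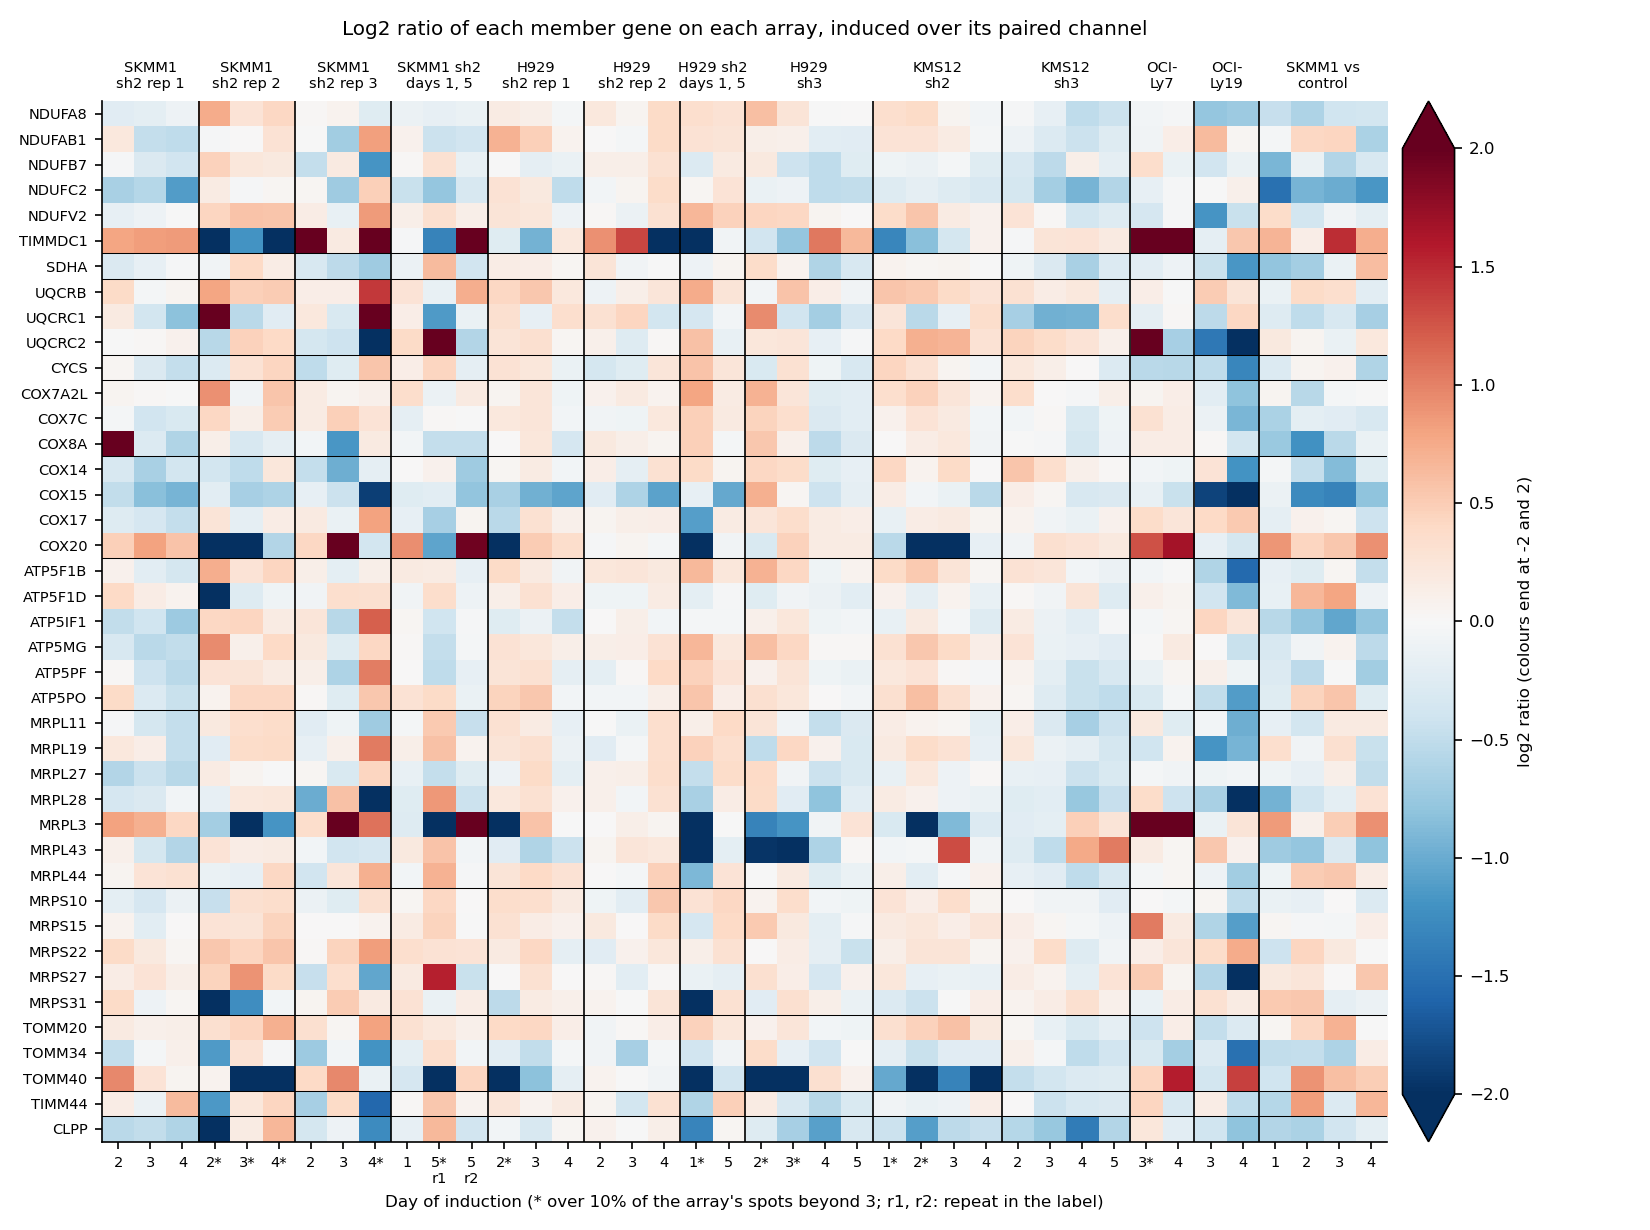
Log2 ratio of the 41 members (rows, grouped by complex or role) on the 40 arrays (columns, by course and day, with an asterisk at wide arrays and sh2 and sh3 for shCasp10-2 and shCasp10-3), with colours that end at -2 and 2. The shCasp10-2 arrays of days 1 and 5 in SKMM1 and H929 have columns of their own, with r1 and r2 for the repeat in the label. Most cells lie close to 0, the dark cells gather in the rows of TOMM40, COX20, MRPL3 and TIMMDC1, and COX15 is blue on 27 of the 32 myeloma arrays.

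Other genes were taken from 9 lists of known function, the last of them cytosolic ribosomal proteins and the rest mitochondrial. In the myeloma response without the wide arrays, 1 of 18 genes of the tricarboxylic acid cycle and pyruvate entry fell, MDH2, the mitochondrial malate dehydrogenase (-0.36 ± 0.094, adjusted p = 0.034). In the list for biogenesis and mitochondrial DNA, 1 of 8 fell, SSBP1, which binds single-stranded mitochondrial DNA (-0.49 ± 0.11, adjusted p = 0.020). None passed among the 8 chaperones and proteases, the 5 genes of fission, fusion and mitophagy, the 4 carriers and channels, the 6 translation factors and tRNA synthetases, the 5 antioxidants, or the 5 further assembly factors of complexes I and IV. Prohibitin 2 (PHB2) is counted both among the chaperones and proteases and among the genes of fission, fusion and mitophagy. Of 13 cytosolic ribosomal proteins none passed, and 11 were below 0 with a median of -0.086. The share of all features called in this fit was 5.89%. With all arrays no gene of the 9 lists passed.

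In the lymphoma response, where 13.9% of all features were called, MDH2 fell (-1.05 ± 0.21, adjusted p = 0.0076) along with PDHB of the pyruvate dehydrogenase complex. TFAM, which packages mitochondrial DNA, fell by 0.74 ± 0.18 on the log2 scale (adjusted p = 0.020), and HSPA9, the matrix Hsp70 of the import motor, fell by 1.17 ± 0.22 (adjusted p = 0.0052). Prohibitin 2 (PHB2) of the inner membrane fell by 1.29 ± 0.29. In the other direction, HSPD1, the matrix chaperonin Hsp60, rose by 2.97 ± 0.61, MFN2, a fusion protein of the outer membrane, by 1.56 ± 0.36, and FARS2, a mitochondrial tRNA synthetase, by 1.15 ± 0.22. Of the 13 cytosolic ribosomal proteins 6 fell, with the smallest p for RPS4X (-0.77 ± 0.12, adjusted p = 0.0019), with a median of -0.61 over the list. Against the control shRNA SSBP1 fell by 1.35 ± 0.25 on the log2 scale (adjusted p = 0.0059), and BNIP3, a mitophagy receptor, rose by 0.57 ± 0.16 (adjusted p = 0.034), as did MFN2 by 1.18 ± 0.33 (adjusted p = 0.038). TACO1, an activator of COX1 translation, fell by 0.57 ± 0.15, and 3 of the 13 ribosomal proteins fell. The share of all features called against the control shRNA was 8.16%. The lists were not tested against this background or against the members. For the list genes no alternative was run in the lymphoma response or against the control shRNA. In the lymphoma response their errors were borrowed in the same way as those of the members. The OCI-Ly7 array of day 3 is wide and was left out of the lymphoma fit, and no member called in that fit passed with all arrays kept.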

How the data were processed

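The values are log ratios of 2-colour spotted lymphochip arrays, deposited by the authors as 1 processed table and read here as log2. For the log base, background correction, normalization and direction the sources used here give nothing. The direction was taken from the dyes in the labels, with Cy5 for induced and Cy3 for uninduced or control shRNA cells. The deposited columns were not centred on their medians.

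Spots were named through the platform annotation: 10169 had 1 symbol, 4 had several and 5073 were unlisted and stayed unnamed. Spots of a gene were averaged. Entrez IDs matched RefSeq for 10128 spots and changed 0 symbols. Days 2 to 4 were used in every myeloma response. For an alternative with days 1 to 5, the day 1 and day 5 arrays were placed in courses by neighbouring array numbers in the labels. This put the SKMM1 day 5 arrays labelled repeats 1 and 2 with repeats 2 and 3, so a fit with them in the labelled repeats was added after seeing the data.

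Linear models were fitted with limma (version 3.58.1, under R 4.3.3; lmFit, then eBayes), and p-values were adjusted by Benjamini-Hochberg over all 9681 features at 0.05. With all arrays, each course was reduced to its mean, with 3 residual degrees of freedom. Without the wide arrays, 22 single arrays were fitted together (16 of myeloma lines, the others of lymphoma lines and the control shRNA), with the course as a random block by duplicateCorrelation. Lymphoma lines were fitted with 17 arrays of days 3 and 4. The fits were run on simulated normal data with the spread of the arrays that were not wide, so this check does not cover wide tails or turned signs. Nothing in the labels says that arrays came from separate cultures, so p-values measure the spread between these samples, which may be technical, and the number of arrays limits precision.

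For SKMM1, deviations of arrays from the mean of their day were correlated over days. Those of 1 repeat correlated at 0.34 to 0.63 (9 pairs) and those of different repeats at -0.65 to 0.44 (18 pairs). Each mean is over 3 repeats, which by itself pushes correlations between different repeats below 0. The 0.44 was between repeats 1 and 3, above the 0.34 to 0.38 within repeat 1, so these values do not separate repeats 1 and 3.

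The members and gene lists were chosen with earlier results of these data known. Members were named if they passed a test, kept 1 sign in all courses, were the extremes of their role group or had the smallest p where none passed. NDUFA8, NDUFAB1, NDUFV2 and COX14 were added after their values were seen, to complete their groups. Promoters were read from RefSeq's table of GRCh38.p14. Alternatives covered the wide-array rule, array weights, centring, days, courses left out, the mean or median over spots and turned signs.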

Additional observations from a re-analysis of the deposited data

Results flagged for a closer look

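Gaps were looked for in 30 groups of course values: those of 14 named members and of the median over the members, with all arrays and without the wide ones. In 4 of them 1 course stood apart from the rest. Chance flags about 1 in 20 independent groups, but these share arrays and several members were named for their values, so the count is not set against that rate. With all arrays, MRPS31 was at -1.69 in SKMM1 repeat 2, and the next lowest course at -0.099. TOMM34 was at -0.66 in SKMM1 repeat 3, next to -0.30, and UQCRC2 was at -0.94 in the same course, next to -0.040. Without the wide arrays COX7A2L was at -0.25 in H929 with shCasp10-3, next to 0.022, and that course then holds 1 array of days 2 to 4.

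In 3 tests of a difference between groups a member passed. For SKMM1 minus KMS12 these were TOMM40, by 1.59 (adjusted p = 0.020), and COX20, by 1.44 (adjusted p = 0.049). For myeloma minus lymphoma it was UQCRC2, by 1.58 (adjusted p = 0.024).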

How the results depend on the processing

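With all arrays, 0 of the 41 members were called in the myeloma response under each of the 17 alternatives, and their median moved from 0.013 to 0.15 when arrays were centred on their medians. Without the wide arrays the 3 calls became 0 with all arrays kept, 5 with array weights on all arrays, 11 with at most 5% of spots beyond 3, 0 with course means, 7 with each spot on its own, 0 with the sign of SKMM1 repeat 3 turned, and 1 to 7 with a course left out. For the lines the counts were 0 with all arrays kept and 0 with course means in SKMM1, KMS12, SKMM1 minus KMS12, the control shRNA comparison, the lymphoma response and myeloma minus lymphoma. Centring gave 8 members in SKMM1 and 2 in myeloma minus lymphoma. With the sign of SKMM1 repeat 3 turned, 0 members passed in SKMM1, SKMM1 minus KMS12, the lymphoma response and myeloma minus lymphoma, and with OCI-Ly7 turned 2 passed in the lymphoma response. With a course left out the counts ran from 3 to 8 in SKMM1, 0 to 3 in KMS12, 0 to 1 in SKMM1 minus H929, 0 to 4 in SKMM1 minus KMS12, 3 to 12 against the control shRNA, 2 to 16 in the lymphoma response and 0 to 8 in myeloma minus lymphoma. With days 1 to 5 the counts were 0 with all arrays and 3 without the wide ones, with the SKMM1 day 5 arrays in the repeats of their labels or in those of neighbouring array numbers. The share of all features called under each alternative is not given beside these counts. They show how the calls moved and set no trait of the members apart from all features. The cause of these moves was not tested. The 0 calls in H929, H929 minus KMS12, both hairpin comparisons and the change with day were the same under every alternative run.

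Direction turned for COX20 in SKMM1 (-0.83 with all arrays kept, -0.29 with the sign of SKMM1 repeat 3 turned) and in SKMM1 minus KMS12 (-0.099 with all arrays kept). It turned for MRPL3 in SKMM1 (-0.31) and in SKMM1 minus H929 (-0.35) with that sign turned, and in the lymphoma response (-1.52) with OCI-Ly7 turned. It turned for TOMM40 in H929 minus KMS12 (-0.46 with all arrays kept) and for NDUFB7 in H929 (0.038 without the shCasp10-3 course, where the range with a course left out was -0.33 to 0.038).

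With the course as a replicate block, in the change with day, 0 members passed and COX15 was at -0.28 ± 0.060 per day (adjusted p = 0.72), so the pairing changed no call there. Where 1 spot reads a gene, as for 22 members, no second spot bears on its value, and for 6 of the other 19 genes the lowest correlation between spots was under 0.2.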
